A study of Homo sapiens with 12 samples.

Results

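The genes examined were the cyclins, cyclin-dependent kinases (CDKs) and inhibitors that act in G1 and at the entry into S phase, chosen by their function, with earlier results of these data known. They were the D-type cyclins CCND1 and CCND3, the E-type cyclins CCNE1 and CCNE2, the kinases CDK2, CDK4 and CDK6, the phosphatase CDC25A and the inhibitors CDKN1B (p27) and CDKN2C (p18). All 10 genes were found among the 25365 names of the expression table, and all 10 were among the 11881 genes that reached a mean of 1 FPKM and were tested. FPKM counts the sequenced fragments of a transcript relative to its length in kilobases and to the depth of the library. Levels of different genes can thus be set beside each other as far as the transcript lengths used hold.

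RNA-seq was made from A549 cells, an epithelial line from a human lung adenocarcinoma. Wild-type (WT) A549 cells and A549 cells labelled PARP3-/- received either vehicle or 1 μM pyridostatin, a small molecule that binds and stabilizes G-quadruplex (G4) DNA, and RNA was taken after 24 h. Each of the 4 groups had 3 replicates, which gave 12 libraries. PARP3 is a DNA repair factor of the poly(ADP-ribose) polymerase family. The PARP3-/- cells carried a deletion made with Cas9 and had been cloned by serial dilution, so the genotype and the history of a clone cannot be told apart here. The comparisons ask how the transcriptome responds to a G4 ligand and whether loss of PARP3 alters it.

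Progress through G1 is driven by D-type cyclins, which bind and activate CDK4 and CDK6. These kinases phosphorylate the retinoblastoma protein RB1, which frees E2F transcription factors to induce the E-type cyclins and the genes of DNA replication. Cyclin E then activates CDK2, and CDC25A removes inhibitory phosphates from CDK2. CDKN2C binds CDK4 and CDK6 and belongs to the INK4 family of inhibitors, whereas CDKN1B belongs to the Cip/Kip family and binds cyclin-CDK2 complexes. The family member CDKN1A (p21) is a classical target of p53.

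Because pyridostatin acts on G-rich DNA and several of these genes are known E2F targets, the promoters were examined for both kinds of sequence. RefSeq promoter windows (build GRCh38.p14, 250 bases before to 50 bases after a start site) were matched for 7 of the 10 members and gave 12 windows. CCND1, CCNE2 and CDK2 had no entry. The windows of the member that fell most with pyridostatin (CDKN2C), of CCND3 and CCNE1, matched cyclins that differed between genotypes, and of CDC25A are shown 5′ to 3′ on the gene's strand. In the first 3, capitals mark a G-run motif, that is, 4 runs of at least 3 G with gaps of 1 to 7 bases, on either strand (runs of C when read on the strand shown). In the window of CDC25A, capitals mark an E2F octamer.
CDKN2C, chr1:50968456-50968755, plus strand: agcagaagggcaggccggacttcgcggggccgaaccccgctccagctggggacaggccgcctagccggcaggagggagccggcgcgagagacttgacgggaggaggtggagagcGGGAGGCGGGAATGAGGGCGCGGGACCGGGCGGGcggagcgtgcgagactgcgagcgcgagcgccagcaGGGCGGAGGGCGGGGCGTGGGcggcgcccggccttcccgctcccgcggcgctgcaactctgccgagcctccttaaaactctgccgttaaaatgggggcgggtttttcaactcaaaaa
CCND3, chr6:42048639-42048938, minus strand: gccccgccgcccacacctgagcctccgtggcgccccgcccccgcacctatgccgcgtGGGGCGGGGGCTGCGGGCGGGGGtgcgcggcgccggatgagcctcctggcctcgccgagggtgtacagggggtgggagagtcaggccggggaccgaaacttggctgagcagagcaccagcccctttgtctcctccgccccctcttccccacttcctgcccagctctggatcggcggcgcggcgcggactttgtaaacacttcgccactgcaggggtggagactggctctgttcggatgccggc
CCNE1, chr19:29811741-29812040, plus strand: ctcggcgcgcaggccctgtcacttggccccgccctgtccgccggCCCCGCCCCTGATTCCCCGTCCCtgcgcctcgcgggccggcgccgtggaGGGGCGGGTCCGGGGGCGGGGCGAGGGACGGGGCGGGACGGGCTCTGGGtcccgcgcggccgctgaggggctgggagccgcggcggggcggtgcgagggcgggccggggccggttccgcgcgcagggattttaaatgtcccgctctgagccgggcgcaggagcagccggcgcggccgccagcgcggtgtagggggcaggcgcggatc
CDC25A, chr3:48188368-48188667, minus strand: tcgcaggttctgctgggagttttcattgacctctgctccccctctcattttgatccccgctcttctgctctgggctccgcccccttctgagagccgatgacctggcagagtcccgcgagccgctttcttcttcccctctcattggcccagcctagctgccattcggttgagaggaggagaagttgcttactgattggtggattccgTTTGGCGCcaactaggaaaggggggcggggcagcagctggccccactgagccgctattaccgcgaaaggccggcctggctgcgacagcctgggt

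The G-run motif was present in 6 of the 12 windows and in 4 of the 7 matched members, which were CCND3, CCNE1, CDK6 and CDKN2C. Of all 35116 RefSeq promoter windows, 25.0% held it. This share is per window, and a share per gene to set beside the member count was not computed. CDKN2C had 3 start sites in the table, and 1 of its windows held the motif, while the windows at all 3 start sites of CCND3 held it. The E2F octamers searched on both strands were TTTCCCGC, TTTCGCGC, TTTGCCGC and TTTGGCGC. Only the window of CDC25A held one of them (TTTGGCGC, beginning at base 207 of the window), against 3.31% of all windows. These matches describe the letters of the windows and were not linked to binding.

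The labelled cell type was checked by its markers, and the keratins KRT8 (2766 to 3375 FPKM) and KRT18 (2207 to 3314 FPKM) and the A549-typical genes AKR1B10, AKR1C1 and NQO1 were high in all 12 libraries. The other epithelial markers were lower, with KRT19 at 83.3 to 168.6 FPKM, CDH1 at 9.85 to 16.7 FPKM and EPCAM at 0.879 to 2.36 FPKM. None of 9 leukocyte, endothelial and fibroblast markers reached 1 FPKM in any library, and their summed level was 0.173 to 0.312 FPKM in WT and 0.482 to 0.816 FPKM in PARP3-/- libraries. The PARP3 transcript itself was 3.40 to 4.05 FPKM in WT libraries and 4.07 to 4.92 FPKM in those labelled PARP3-/-, so it was not lower in the latter. A level over the whole gene does not test for a deletion in the first exon, and directions between genotypes follow the labels. The second WT vehicle library stood apart. Its FPKM values summed to 563473 against 492839 to 525124 in the others, and its median absolute log2 distance from its group was 0.156 against 0.0476 to 0.0960. Member calls that turn on it are given with and without it. Some of these are for comparisons that do not contain it, since all comparisons share the estimate of each gene's spread. Depth, approximated from the steps between low FPKM values, was about 22000000 to 31200000 reads per library, with about 378 reads for the sparsest member value (CCNE2), where counting alone gives an error of 5.15%.

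The members spanned a wide range of levels in the same cells. In WT vehicle libraries CCND3 (110.7 ± 7.70 FPKM, SD, n = 3), CDK4 (94.8 ± 10.1 FPKM) and CCND1 (77.4 ± 6.08 FPKM) were the most abundant. CDK2 (29.1 FPKM) and CCNE1 (19.7 ± 1.53 FPKM) were intermediate, followed by CDKN2C (13.6 ± 0.245 FPKM) and CDKN1B (11.7 ± 0.318 FPKM). CDK6 (7.12 ± 1.73 FPKM), CDC25A (6.86 ± 0.440 FPKM) and CCNE2 (5.65 ± 0.560 FPKM) were lowest. Neighbours in this order had separate ranges except CCND3 and CDK4, and CDK6 and CDC25A. In PARP3-/- vehicle libraries the first 3 places were taken by CDK4 (95.7 ± 4.08 FPKM), CCND1 (86.4 FPKM) and CCND3 (78.3 ± 3.26 FPKM), with no overlap between neighbours. Fold changes and tests below use log2(FPKM + 1), on which the change of low genes is understated, and adjusted p-values are from limma with Benjamini-Hochberg adjustment over all 11881 genes. In bulk RNA, fewer cells in a phase of the cycle and less RNA per cell cannot be told apart.

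**Figure D1:**
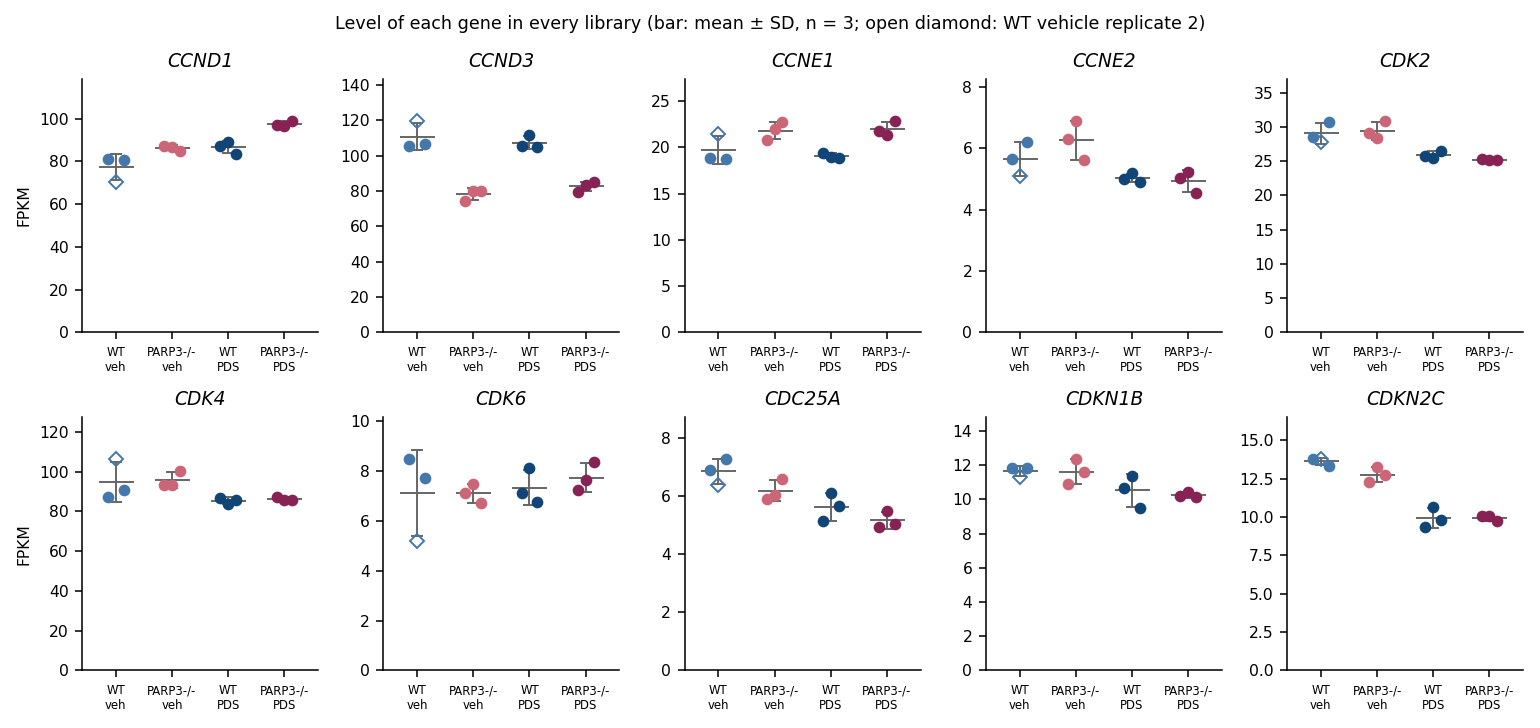
FPKM of each of the 10 genes (y axis from 0, 1 panel per gene) in the 4 groups, with vehicle (veh) or pyridostatin (PDS); points are libraries, bars are the mean and SD of 3 replicates, and the open diamond is the second WT vehicle library. CCND3 separates the genotypes under both treatments, CDKN2C separates the treatments in both genotypes, and the open diamond is the lowest CDK6 value (5.17 FPKM) and the highest CDK4 value (106.2 FPKM).

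With pyridostatin, the fall of CDKN2C passed the threshold in both genotypes and that of CDK2 in PARP3-/- cells, while no member rose past it in a single genotype. In WT cells 1 of the 10 members passed an adjusted p of 0.05 (CDKN2C, lower), against 4.17% of all tested genes in either direction and 1.38% lower. In PARP3-/- cells 2 of 10 passed (CDKN2C and CDK2, both lower), against 5.56% of all genes in either direction and 2.52% lower. Averaged over both genotypes, which sets 6 libraries against 6, CCND1 rose and CDKN2C, CDK2, CDC25A, CCNE2 and CDKN1B fell, that is, 6 of 10 members against 13.9% of all genes (7.71% higher and 6.24% lower). The median log2 fold change of the 10 members was -0.15 and that of all tested genes was 0.00093. All changes were small, and no member reached an absolute log2 fold change of 1. The split of all called genes depends on scaling. In WT cells 66.9% of them were higher, against 45.6% when libraries were shifted to a common median and 81.2% when each was rescaled to the same total. In PARP3-/- cells the share was 54.8%, against 45.3% and 75.3% under the same scalings, and in the average it was 55.3%, against 39.9% and 74.9%.

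The INK4 inhibitor CDKN2C showed the clearest response. With vehicle it was at 13.8, 13.8 and 13.3 FPKM in the 3 WT libraries and at 12.3, 13.3 and 12.8 FPKM in the PARP3-/- libraries. With pyridostatin it was at 9.37, 10.7 and 9.83 FPKM in WT and at 10.1, 10.1 and 9.74 FPKM in PARP3-/- cells. Every pyridostatin library lay below every vehicle library of either genotype. The log2 fold change was -0.42 in WT (SE 0.0468, adjusted p = 0.000722) and -0.33 in PARP3-/- cells (SE 0.0468, adjusted p = 0.003), and averaged over both it was -0.37 (adjusted p = 5.55e-05). These calls held in all alternatives run, with the WT value between -0.47 and -0.38 and the PARP3-/- value between -0.35 and -0.30. The difference of the fall between genotypes was 0.09 on the log2 scale (95% interval -0.06 to 0.24, adjusted p = 0.999) and was not resolved. Of the promoter windows of this gene, only that shown above holds G-run motifs, and a link of motif and response was not tested.

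The other inhibitor, CDKN1B, moved less. It was at 11.8, 11.3 and 11.8 FPKM in WT vehicle libraries and at 10.7, 11.4 and 9.48 FPKM with pyridostatin. The PARP3-/- libraries had 10.9, 12.3 and 11.6 FPKM with vehicle and 10.2, 10.5 and 10.1 FPKM with pyridostatin. The ranges overlapped in WT and did not in PARP3-/- cells. Neither genotype passed alone (log2 fold change -0.14, adjusted p = 0.237 in WT, and -0.16, adjusted p = 0.164 in PARP3-/- cells), and the average passed narrowly (-0.15, SE 0.0433, adjusted p = 0.0427). That call was lost in 12 of 20 alternatives, with adjusted p-values up to 0.178, among them 9 of the 12 that leave out 1 library (0.0692 to 0.101, all but the second WT vehicle, the first PARP3-/- vehicle and the second WT pyridostatin library).

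CDK2, the partner of cyclin E, fell modestly. It was at 28.6, 27.9 and 30.8 FPKM in WT vehicle libraries and at 25.8, 25.4 and 26.5 FPKM with pyridostatin. PARP3-/- vehicle libraries had 29.1, 28.3 and 30.9 FPKM, and the 3 pyridostatin libraries of that genotype had 25.3, 25.2 and 25.2 FPKM. The treatment groups did not overlap in either genotype. The log2 fold change was -0.22 in PARP3-/- cells (SE 0.0431, adjusted p = 0.0174), -0.16 in WT cells (adjusted p = 0.0695) and -0.19 averaged (adjusted p = 0.00289). The difference of the fall between genotypes was -0.06 (95% interval -0.19 to 0.08) and was not resolved. The call in PARP3-/- cells was lost when the first or the third vehicle library or the second or the third pyridostatin library of that genotype was left out (adjusted p = 0.0514 to 0.0712) and after rescaling libraries to a common total (adjusted p = 0.104), whereas the averaged call held in all 20 alternatives. Without the second WT vehicle library the change in WT cells passed as well (-0.19, adjusted p = 0.0318), and so did a fit with a replicate block (adjusted p = 0.0477).

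CDC25A, the phosphatase that activates CDK2, was among the sparsest members. Its levels were 6.90, 6.40 and 7.28 FPKM in WT vehicle and 5.15, 6.11 and 5.66 FPKM in WT pyridostatin libraries. PARP3-/- libraries had 5.91, 6.05 and 6.60 FPKM with vehicle, and 4.96, 5.50 and 5.03 FPKM with pyridostatin. Pyridostatin libraries lay below the vehicle libraries of their own genotype without overlap. The averaged log2 fold change was -0.23 (SE 0.0470, adjusted p = 0.00859), and this call held in all 20 alternatives. The changes in WT (-0.24, adjusted p = 0.0710) and in PARP3-/- cells (-0.22, adjusted p = 0.0845) did not pass alone, but both passed without the second WT vehicle library (adjusted p = 0.0405 and 0.0434).

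Of the E-type cyclins, CCNE2 fell in the average and CCNE1 did not pass the test, and the difference between them was not tested. CCNE2 was at 5.65, 5.09 and 6.21 FPKM in WT vehicle and at 5.01, 5.19 and 4.92 FPKM in WT pyridostatin libraries. It was at 6.29, 6.89 and 5.61 FPKM in PARP3-/- vehicle and at 5.04, 5.22 and 4.55 FPKM in PARP3-/- pyridostatin libraries. The groups overlapped in WT and were separate in PARP3-/- cells. Averaged over genotypes CCNE2 changed by -0.21 on the log2 scale (SE 0.0547, adjusted p = 0.0269). The call was lost in 8 of 20 alternatives, with no filter on low values (adjusted p = 0.0692), after rescaling to a common total (adjusted p = 0.110) and when any of 6 libraries was left out (adjusted p = 0.0534 to 0.0689), which were the third WT vehicle, the first and second PARP3-/- vehicle, the first and the third WT pyridostatin and the third PARP3-/- pyridostatin library. Within PARP3-/- cells alone the value was -0.29 (adjusted p = 0.0559, and 0.0240 without the second WT vehicle library). The span of CCNE2 from start to end overlaps those of INTS8 (19.9 FPKM) and NDUFAF6 (8.89 FPKM) on the opposite strand. Shared exons were not examined, and the strand setting of the counting is not given in the sources used here. Whether reads of these genes were counted for CCNE2 was not tested.

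CCNE1 had a log2 fold change with pyridostatin of -0.04 in WT (95% interval -0.16 to 0.08) and 0.01 in PARP3-/- cells (-0.11 to 0.13). Its mean was 19.7 and 19.1 FPKM in WT vehicle and pyridostatin libraries and 21.8 and 22.0 FPKM in the corresponding PARP3-/- libraries. The ratio of CCNE1 to CCNE2 was 3.03 to 4.22 and 3.65 to 3.87 in these WT groups, and 3.18 to 4.05 and 4.10 to 5.03 in these PARP3-/- groups. It was thus higher with pyridostatin in PARP3-/- cells without overlap, and overlapped in WT cells.

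Of the D-type cyclins, CCND1 rose and CCND3 did not pass the test. CCND1 was at 81.2, 70.3 and 80.6 FPKM in WT vehicle and at 87.2, 89.0 and 83.5 FPKM in WT pyridostatin libraries. PARP3-/- libraries were at 87.1, 86.9 and 85.0 FPKM with vehicle and at 97.2, 96.5 and 98.8 FPKM with pyridostatin. The highest vehicle library lay below the lowest pyridostatin library within each genotype. The averaged log2 fold change was 0.17 (SE 0.0364, adjusted p = 0.0123) and held in all 20 alternatives, while the single genotypes had 0.16 (adjusted p = 0.107) and 0.17 (adjusted p = 0.0819). The second WT vehicle library was the lowest of its group. Leaving it out lowered the averaged value to 0.14, which still passed, and the WT value to 0.10, which did not pass. Without the second WT vehicle library, which enters the PARP3-/- comparison only through the shared spread, CCND1 passed in PARP3-/- cells (adjusted p = 0.00453). It also passed there in a fit to only the libraries of that comparison (adjusted p = 0.0162). CCND3 had an averaged value of 0.02 (95% interval -0.07 to 0.10, adjusted p = 0.798).

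The kinases that partner with them gave no averaged call. CDK4 was at 87.3, 106.2 and 90.8 FPKM in WT vehicle and at 86.7, 83.8 and 85.9 FPKM in WT pyridostatin libraries. Among PARP3-/- libraries it was at 93.5, 93.3 and 100.5 FPKM with vehicle and at 87.2, 85.9 and 85.8 FPKM with pyridostatin. Although the treatment groups did not overlap, the averaged log2 fold change of -0.15 just missed the threshold (adjusted p = 0.0550). It passed in 4 of 20 alternatives. It was -0.10 and passed without the second WT vehicle library (adjusted p = 0.0192), and -0.17 without the first (adjusted p = 0.0234). Within PARP3-/- cells the change of -0.15 passed only without the second WT vehicle library (adjusted p = 0.0203). The averaged change also passed under 2 scalings. It was -0.11 and passed after quantile normalization (adjusted p = 0.0307) and after rescaling to a common total (adjusted p = 0.0282). The protein-coding genes TSPAN31 (11.6 FPKM) and MARCH9 overlap CDK4 on the opposite strand. LTO1 overlaps CCND1 and PMEL (0.487 FPKM) overlaps CDK2 in the same way. No level was found under the names MARCH9 and LTO1. Whether reads of these genes were counted for the members was not tested.

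CDK6 was the least precisely measured member. Its levels were 8.47, 5.17 and 7.72 FPKM in WT vehicle, 7.12, 8.11 and 6.76 FPKM in WT pyridostatin, 7.10, 7.49 and 6.73 FPKM in PARP3-/- vehicle and 7.22, 7.63 and 8.36 FPKM in PARP3-/- pyridostatin libraries. All groups overlapped, and the averaged log2 fold change was 0.08 (95% interval -0.13 to 0.29, adjusted p = 0.613). The second WT vehicle library was the lowest of all 12. Without it the WT vehicle mean was 8.10 ± 0.527 FPKM (SD, n = 2) in place of 7.12 ± 1.73 FPKM. The log2 fold change in WT cells was 0.06 with this library and -0.13 without it, and neither passed. CDK4 was 10.3 to 20.6 times as abundant as CDK6 per length, and the highest ratio was that of the same library.

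**Figure D2:**
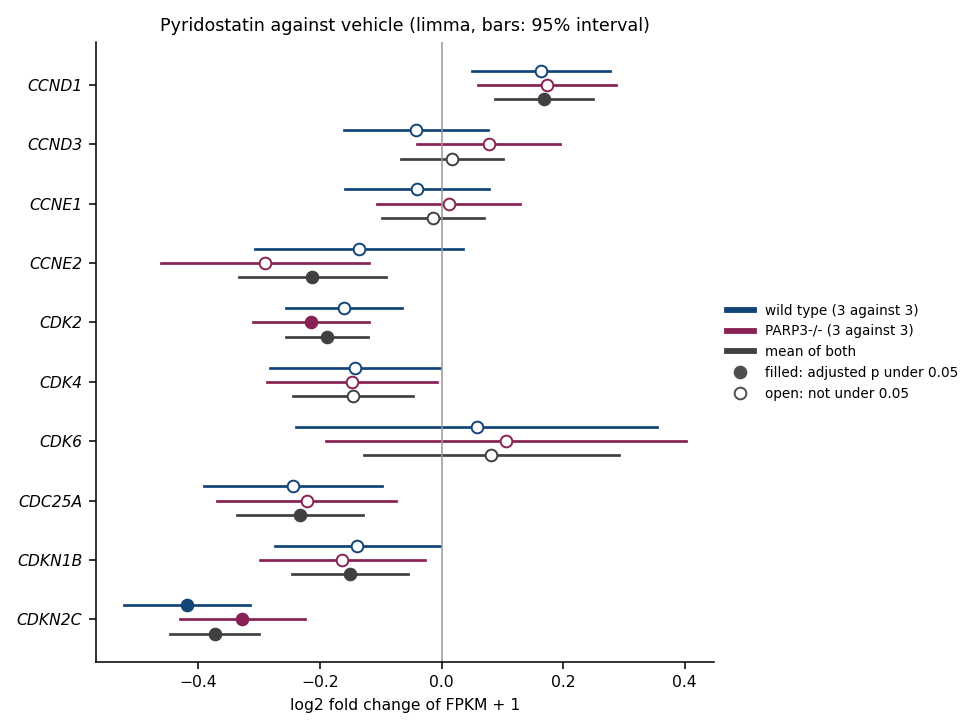
Log2 fold change of FPKM + 1 with pyridostatin against vehicle (x axis) for the 10 genes (y axis) in WT cells, in PARP3-/- cells and as the mean of both; bars are 95% intervals from limma and filled points have an adjusted p under 0.05. CDKN2C is filled in all 3 comparisons, CDK2 in PARP3-/- cells and in the mean, and CCND1, CCNE2, CDC25A and CDKN1B in the mean alone.

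Counted by separate groups, 5 of the 10 members did not overlap between pyridostatin and vehicle in WT cells (CCND1 higher, and CDC25A, CDK2, CDK4 and CDKN2C lower), against 23.1% of all genes. For PARP3-/- cells 7 of 10 did not overlap, the same 5 and in addition CCNE2 and CDKN1B, both lower, against 32.3% of all genes. The interaction of genotype and treatment was called for 0 of the 10 members and for 0% of all tested genes by limma. At an unadjusted p under 0.05 it held for 0 members and 521 of all genes. The largest member value was that of CCNE2 (-0.15, 95% interval -0.40 to 0.09), so differences in response of this size were not resolved with 3 replicates.

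Between the genotypes, CCND3 was lower and CCND1 and CCNE1 were higher in the PARP3-/- libraries. With vehicle 1 of the 10 members passed (CCND3, lower), against 9.41% of all genes in either direction and 3.01% lower. With pyridostatin 2 passed (CCND3 lower and CCNE1 higher), against 10.9% of all genes, 7.07% higher and 3.85% lower. Averaged over treatments 3 of 10 passed (CCND1 and CCNE1 higher, CCND3 lower), against 19.1% of all genes, 12.2% higher and 6.95% lower. The median log2 difference of the members in this average was 0.0029, beside 0.01 for all genes. Of all called genes 68.0% were higher with vehicle, 64.8% with pyridostatin and 63.7% in the average, and after shifting libraries to a common median 51.7%, 53.1% and 45.7% were higher. After rescaling to the same total the shares were 76.7%, 76.1% and 77.8%, and after quantile normalization the share was 57.8% with vehicle and 52.2% in the average. The vehicle libraries of each genotype enter both the genotype and the pyridostatin comparisons.

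CCND3 gave the strongest genotype difference among the members. In vehicle libraries it was at 105.6, 119.6 and 106.9 FPKM in WT and at 74.5, 80.1 and 80.2 FPKM in PARP3-/- cells. In pyridostatin libraries it was at 105.1 to 111.5 FPKM in WT and at 79.7 to 84.9 FPKM in PARP3-/- cells. All 6 PARP3-/- libraries lay below all 6 WT libraries. The log2 difference was -0.49 with vehicle (SE 0.0534, adjusted p = 0.000165), -0.37 with pyridostatin (SE 0.0534, adjusted p = 0.0011) and -0.43 averaged (adjusted p = 1.65e-05). These calls held in all alternatives, with a vehicle value of -0.53 to -0.44. The 3 promoter windows of CCND3 all held the G-run motif. A link of the motif to the genotype difference or to the response to pyridostatin was not tested.

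For CCND1 the 6 PARP3-/- libraries were higher than the WT libraries of the same treatment without overlap. The log2 difference was 0.16 with vehicle (adjusted p = 0.0845), and 0.09 without the second WT vehicle library, which did not pass either. It was 0.17 with pyridostatin (adjusted p = 0.0618, and 0.0025 without the second WT vehicle library). With pyridostatin it also passed in a fit to only the libraries of that comparison (adjusted p = 0.0202). Averaged over treatments it was 0.16 (SE 0.0364, adjusted p = 0.00907), and that call held in all 20 alternatives. The ratio of CCND1 to CCND3 was 0.588 to 0.768 in WT vehicle and 0.795 to 0.828 in WT pyridostatin libraries. In PARP3-/- libraries it was 1.06 to 1.17 with vehicle and 1.16 to 1.22 with pyridostatin. The order of these genes depends on the transcript lengths used for FPKM, which are not given in the sources used here. On this scale CCND3 was the more abundant D-type cyclin transcript in all 6 WT libraries, and CCND1 in all 6 PARP3-/- libraries. Their sum was 188.0 ± 1.64 FPKM in WT vehicle and 164.6 ± 2.80 FPKM in PARP3-/- vehicle libraries, and 193.9 ± 6.04 and 180.1 ± 3.47 FPKM with pyridostatin (SD, n = 3). The remaining D-type cyclin, CCND2, was at most 0.0231 FPKM in any library.

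CCNE1 was at 18.8, 21.5 and 18.8 FPKM in WT vehicle and at 20.8, 21.9 and 22.7 FPKM in PARP3-/- vehicle libraries. With pyridostatin it was at 18.9 to 19.4 FPKM in WT and at 21.4 to 22.8 FPKM in PARP3-/- cells. The vehicle groups overlapped through the second WT library alone, and the pyridostatin groups were separate. The averaged log2 difference was 0.17 (SE 0.0377, adjusted p = 0.00947) and held in all 20 alternatives. With vehicle it was 0.14 (adjusted p = 0.138), and 0.20 without the second WT vehicle library (adjusted p = 0.00928). With pyridostatin it was 0.20 (adjusted p = 0.0403), but that call was lost when any of the 6 pyridostatin libraries or the second PARP3-/- vehicle library was left out (adjusted p = 0.0627 to 0.147) and in a fit with a replicate block (adjusted p = 0.0605), with no filter (adjusted p = 0.0752) or after a shift to a common median (adjusted p = 0.114).

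The remaining 7 members gave no genotype call. Their averaged log2 differences ran from -0.12 for CDC25A (95% interval -0.22 to -0.01, adjusted p = 0.115) to 0.05 for CCNE2 (-0.07 to 0.17). CDC25A passed, at -0.15, after quantile normalization (adjusted p = 0.0339) and after shifting libraries to a common median (adjusted p = 0.0334). For CDK2, CDK4 and CDKN1B the averaged differences lay between -0.02 and 0.02, with intervals within -0.11 to 0.12. Without overlap between genotypes were 3 members with vehicle (CCND1, CCND3 and CDKN2C, against 24.2% of all genes) and 4 with pyridostatin (CCND1, CCND3, CCNE1 and CDK2, against 35.2%). The markers typical of A549 moved with the genotype as well. The summed level of AKR1B10, AKR1C1 and NQO1 was 3228 to 3654 FPKM in WT and 2452 to 2691 FPKM in PARP3-/- libraries, without overlap. That of the epithelial markers KRT8, KRT18, KRT19, CDH1 and EPCAM was 5714 to 6806 FPKM in WT and 5150 to 5882 FPKM in PARP3-/- libraries, with overlap. The part of either in these differences was not tested.

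**Figure D3:**
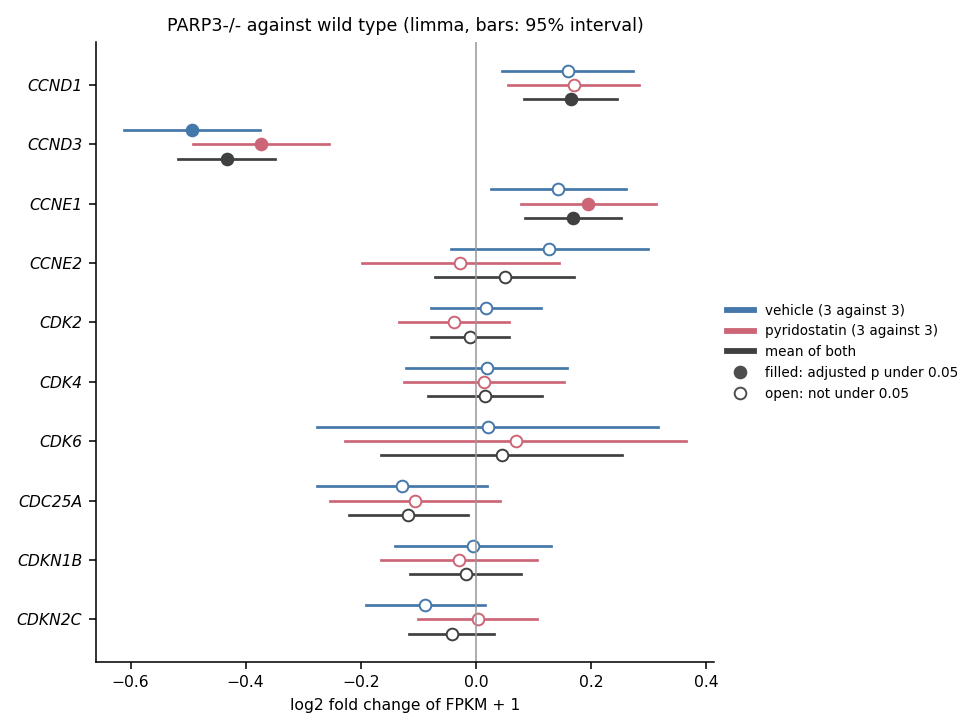
Log2 difference of FPKM + 1 between PARP3-/- and WT libraries (x axis) for the 10 genes (y axis) with vehicle, with pyridostatin and as the mean of both; bars are 95% intervals from limma and filled points have an adjusted p under 0.05. CCND3 is filled in all 3 comparisons, CCNE1 with pyridostatin and in the mean, and CCND1 in the mean alone.

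The inhibitor CDKN1A, which belongs to the same pathway but not to the members, is given for comparison as one of the strongest responders. It was at 85.6, 94.9 and 80.5 FPKM in WT vehicle and at 193.6, 196.1 and 189.4 FPKM in WT pyridostatin libraries. For PARP3-/- libraries the values were 95.6, 102.1 and 102.5 FPKM with vehicle and 198.3, 211.2 and 214.8 FPKM with pyridostatin. It rose by 1.14 (adjusted p = 1.116e-05) and 1.05 (adjusted p = 3.209e-05) on the log2 scale, and the difference between genotypes was not resolved (-0.09, 95% interval -0.28 to 0.09). No tested gene had a smaller adjusted p in either genotype. The median absolute log2 fold change of all tested genes was 0.08 in WT and 0.07 in PARP3-/- cells. The ratio of CDKN1A to CDKN1B was 6.80 to 8.40 in WT vehicle and 17.2 to 20.0 in WT pyridostatin libraries. It was 8.27 to 8.82 in PARP3-/- vehicle and 19.5 to 21.2 in PARP3-/- pyridostatin libraries. CDKN1A is known to inhibit CDK2 complexes, and the ratio of CDK2 to CDKN1A transcripts was 0.294 to 0.382 in WT vehicle and 0.130 to 0.140 in WT pyridostatin libraries, and 0.278 to 0.305 and 0.117 to 0.127 in the same groups of PARP3-/- cells. This ratio fell mainly through the rise of CDKN1A, since the averaged log2 fold change of CDK2 was -0.19. Its size depends on the transcript lengths used for FPKM, and protein was not measured in these libraries.

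**Figure D4:**
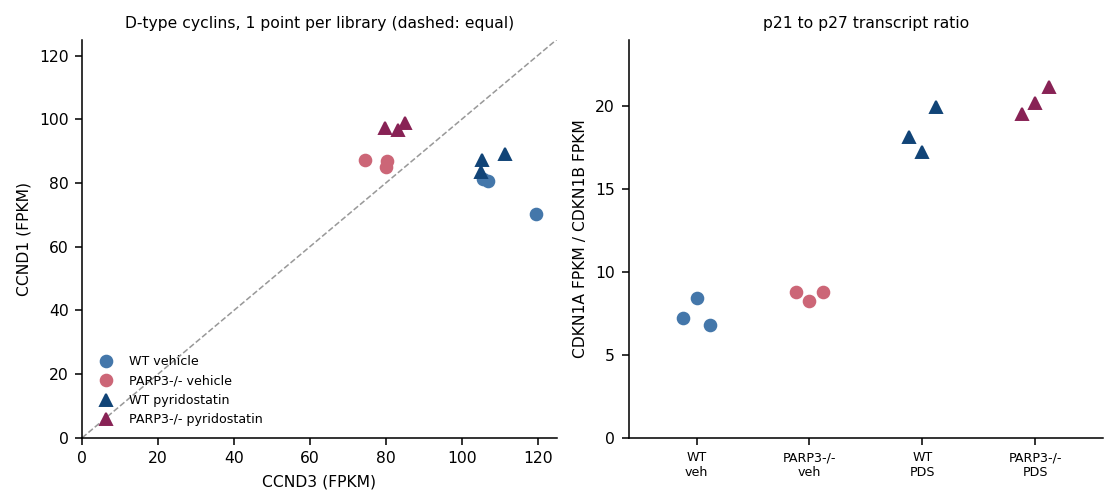
Left, CCND1 against CCND3 (both in FPKM, axes from 0), 1 point per library, with a dashed line of equal levels; right, the ratio of CDKN1A to CDKN1B FPKM per library in the 4 groups (veh, vehicle; PDS, pyridostatin). All 6 PARP3-/- libraries lie above the line and all 6 WT libraries below it, and the ratio is 6.80 to 8.82 with vehicle and 17.2 to 21.2 with pyridostatin.

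Other regulators of the G1/S step moved in both directions. Of 23 genes in this list 19 were tested, and averaged over genotypes 3 rose and 5 fell with pyridostatin (7.71% of all genes were higher and 6.24% lower), with a median log2 fold change of -0.04. Over the alternatives 1 to 4 rose and 3 to 5 fell. Beside CDKN1A, FBXW7 (0.23, adjusted p = 0.0177), the ubiquitin ligase subunit that targets cyclin E, and TFDP2 (0.16, adjusted p = 0.0230), a dimerization partner of E2F, rose. Those that fell were E2F1 (-0.41), E2F2 (-0.34), E2F5 (-0.23), the INK4 inhibitor CDKN2D (-0.27) and TFDP1 (-0.12, adjusted p = 0.0405). E2F1 and E2F2 also passed within WT (-0.44 and -0.33) and within PARP3-/- cells (-0.39 and -0.36). RB1 (-0.01), MYC (-0.07) and SKP2 (-0.10) did not pass. The INK4 genes CDKN2A and CDKN2B were at 0 in all 12 libraries, and CDKN1C was at most 0.180 FPKM, so CDKN2C and CDKN2D were the INK4 transcripts detected.

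Many genes of DNA replication, classical E2F targets, fell with pyridostatin. Of 17 genes, 10 fell in WT cells (1.38% of all genes were lower), 12 in PARP3-/- cells (2.52%) and 15 in the average (6.24%), and none rose in these 3 comparisons. Their median averaged log2 fold change was -0.27, beside 0.00093 for all genes. Among the origin and helicase genes that fell were GINS2 (-0.43), CDC45 (-0.37), MCM6 (-0.36), MCM2 (-0.32) and CDC6 (-0.27), and the thymidine kinase TK1 fell by 0.28. PCNA (0.06) and TYMS (0.04) did not pass. The averaged count that fell stayed between 12 and 15 in all alternatives, while 2 of the 17 rose after quantile normalization or rescaling and 1 rose without the second WT vehicle library. In WT cells it was 12 without the second WT vehicle library, 6 without the first or the third WT pyridostatin library and 1 when only the 6 WT libraries were modelled. For PARP3-/- cells it was 15 without the second WT vehicle library and 8 without the third PARP3-/- vehicle or the third PARP3-/- pyridostatin library. Of 11 G2/M genes, 5 fell in the average, where 6.24% of all genes were lower (CDC20, CCNB2, AURKA, PLK1 and CCNB1, from -0.28 to -0.15) with a list median of -0.11, and 4 to 6 fell over the alternatives. These lists were chosen with results of these libraries known and are given as descriptions.

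**Figure D5:**
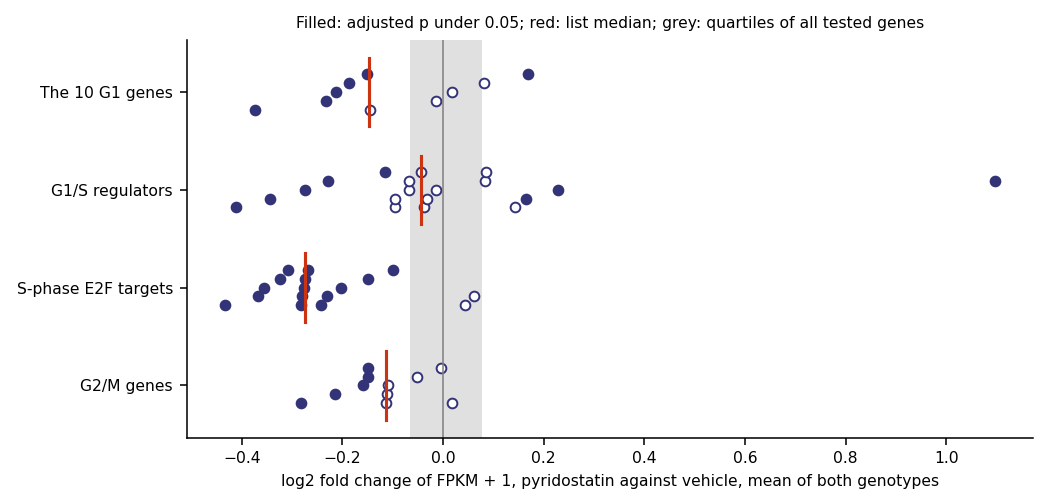
Averaged log2 fold change of FPKM + 1 with pyridostatin (x axis) for the 10 G1 genes and for 3 other lists (rows), 1 point per tested gene, offset vertically only for legibility; filled points have an adjusted p under 0.05, red lines are list medians, and the grey band spans the quartiles of all tested genes (-0.06 to 0.07). The list medians are -0.15, -0.04, -0.27 and -0.11 from top to bottom, and the point at 1.10 is CDKN1A.

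The genes whose pattern over the 12 libraries was most like that of the 3 members with the smallest p for pyridostatin were listed by Pearson's r of log2(FPKM + 1), as a description with no test, since all points share the same 4 groups. For CDKN2C they were HNRNPA0 (r = 0.969), MCM2 (r = 0.964) and SNX5 (r = 0.962). NCAPD2 (r = 0.962), CENPO (r = 0.954) and WDR76 (r = 0.954) were closest to CDK2. CDC25A was most like CYP51A1 (r = 0.969), ISOC1 (r = 0.948) and B4GALT4 (r = 0.938). MCM2, which followed CDKN2C, had means of 46.5 and 46.7 FPKM in WT and PARP3-/- vehicle libraries and of 37.4 and 36.6 FPKM with pyridostatin. CYP51A1, which followed CDC25A, had means of 31.5 FPKM in WT vehicle, 26.5 FPKM in WT pyridostatin and 25.3 FPKM in PARP3-/- pyridostatin libraries.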

How the data were processed

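Stranded mRNA libraries from 12 A549 samples were sequenced as single-end 75-base reads. The authors deposited 1 table of FPKM values, 1 column per library, already scaled for transcript length and depth. The submitters' processing notes name bcl2fastq 2.16, STAR 2.5, Cufflinks and the builds hg19 and mm9, with no roles. The strand setting and the annotation are not given in the sources used here. Since FPKM are not counts, limma 3.58.1 (R 4.3.3) took the place of the count test in the study's methods. It was fitted to log2(FPKM + 1) for 11881 genes averaging 1 FPKM or more, in 1 model of all 4 groups without a block (trended eBayes), and adjusted by Benjamini-Hochberg (threshold 0.05). The procedure was also run on simulated data with independent noise and known changes. That simulation held no library that stands apart and no shift in scaling, so it cannot speak to either. Per the study's methods the 3 libraries of a group are biological replicates. The p-values set a difference against the spread between such replicates, pooled over the 4 groups and moderated across genes. They do not cover spread between clones. Counting errors cover counting only.

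The members and lists were chosen with earlier results of these data known. All 10 members are named in every comparison. Also named are the 3 genes most correlated with each of the 3 members of smallest p, CDKN1A, genes past the threshold in 3 lists (G1/S regulators, S-phase E2F targets and G2/M genes) and PARP3. Values of listed genes that did not pass, and of genes near 0, were named after their values were seen. Alternatives were a pseudocount of 0.1, no filter or one at 5 FPKM, normalization to common quantiles or to a common median, rescaling to a common total, eBayes without a trend, a replicate block, only the libraries of the comparison, and each of the 12 libraries left out. Applying them to the lists was chosen after seeing the data. Overlapping genes and transcript lengths came from GENCODE release 29, and promoters from RefSeq GRCh38.p14. Further tools were Python 3.11.15, pandas 2.3.3, numpy 2.4.6 and, for figures, matplotlib 3.10.9.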

Additional observations from a re-analysis of the deposited data

How the results depend on the processing

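The calls of CDKN2C with pyridostatin and of CCND3 between genotypes kept direction and threshold in all alternatives run. Of 1440 comparisons of a member's value with its value in an alternative, 0 reversed a called value, 35 lost a call, 26 gained one and 70 changed the sign of a value that was not called. The number of members called with pyridostatin in WT cells (1) was 2 after quantile normalization, 3 after a shift to a common median, 2 with the replicate block and 1 to 3 when 1 library was left out (3 without the second WT vehicle library). In PARP3-/- cells (2) it was 4 after either of those scalings, 1 after rescaling to a common total and 1 to 6 with a library left out (6 without the second WT vehicle library, and 1 without the first PARP3-/- vehicle or the second or the third PARP3-/- pyridostatin library). Between genotypes with vehicle (1) it was 2 after rescaling to a common total and 1 to 2 with a library left out (2 without the second WT vehicle library). With pyridostatin (2) it was 1 with no filter, 1 after the shift to a common median, 1 with the replicate block and 1 to 3 with a library left out. The averages gave 4 to 7 and 3 to 3 with a library left out, and the interaction 0 to 0. The cause of these changes was not tested. Same-numbered libraries deviated from their group means with correlations of -0.12 to 0.216, not above 0.1 for every pair in any comparison, so the numbers were not taken to pair the libraries. With the replicate block, CDK2 passed with pyridostatin in WT cells (adjusted p = 0.0477), and CCNE1 with pyridostatin between genotypes (0.0605) and CDKN1B in the average (0.0515) were lost; no other member's call changed. Depth limits CCNE2 and CDC25A most, at about 378 and 475 reads in their lowest libraries.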
